A study of Mus musculus with 6 samples.

Results

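A set of 10 long noncoding RNAs was followed across 6 libraries of mouse 3T3 fibroblasts: the nuclear RNAs Malat1 and Neat1, and the snoRNA host genes Gas5, Snhg1, Snhg3, Snhg5, Snhg6, Snhg8, Snhg12 and Epb41l4aos. The set is a list of gene names, drawn up with earlier results of these data known and not by a threshold on the values. Of the 10 genes, 8 were among the 35275 genes of the deposited table, matched by the Ensembl identifiers of the GENCODE M21 annotation. Snhg1 and Snhg8 were not analysed here. Of the 8, 7 reached a mean of 1 FPKM (fragments per kilobase of transcript, scaled to library size, so a level per transcript length) over the 6 libraries. They were tested together with all 10882 genes that reached this level.

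The 3T3 line is an established line of mouse embryonic fibroblasts. One group of 3 libraries came from cells that express a control construct. The other group of 3 came from cells that express an overexpression construct for NNMT, nicotinamide N-methyltransferase, which takes its methyl group from S-adenosylmethionine, a product of methionine. Both groups were grown for 48 h in DMEM without methionine to which methionine had been added back to 10 µM, with 10% dialyzed serum. The series describes 3 biological replicates a group. No label says that the cultures of a group were transduced separately, so the p-values below measure the spread between these cultures. In the table, the first NNMT column carries no replicate number and is called the unnumbered NNMT library. The labels list an NNMT replicate 1, and this is the only NNMT column left for it.

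The 6 libraries held between 31620258 and 39980003 reads assigned to genes, recovered from the steps of the FPKM values. Nnmt itself was at 7.61, 5.25 and 6.51 FPKM in control replicates 1 to 3. It was at 15.7 in the unnumbered NNMT library, 15.0 in NNMT replicate 2 and 18.3 in NNMT replicate 3, so every NNMT library was above every control. The mean rose 2.53-fold, from 6.45 ± 1.18 to 16.3 ± 1.70 FPKM (SD, n = 3 libraries a group, as throughout). The labels do not say how much of the construct's transcript the mouse gene counts. All 10 fibroblast markers examined reached 1 FPKM, against 0 of 6 epithelial, 0 of 4 endothelial, 1 of 5 leukocyte and 1 of 3 muscle ones. The summed fibroblast markers were higher in NNMT, 10300 to 11700 FPKM against 8150 to 8420. The summed neural markers were at 3.86 to 4.30 FPKM in control and 0.0898 to 0.152 in NNMT, from Tubb3 as the single one that reached 1 FPKM. Mitochondrial genes took 0.480% to 0.570% of reads in control and 0.610% to 0.720% in NNMT. The part of these differences in the results below was not tested, and fewer cells that make an RNA cannot be told apart from less RNA per cell.

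Malat1 and Neat1 are long RNAs that stay in the nucleus and are transcribed from neighbouring genes. Malat1 gathers in nuclear speckles, which hold splicing factors, and its end is made by RNase P instead of by cleavage and polyadenylation. Neat1 is the scaffold of paraspeckles, bodies built around the proteins NONO and SFPQ. The snoRNA host genes work in another way: small nucleolar RNAs are cut from their introns and guide the modification of ribosomal RNA, while the spliced exons form a long RNA that mostly has no protein product. Many of these spliced RNAs begin with a pyrimidine tract, the feature shared by ribosomal protein genes, and several are removed by nonsense-mediated decay, the pathway that destroys RNAs whose reading frame stops early.

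Of the 7 tested RNAs, 3 rose in the NNMT cells. They were Snhg5 (1.58-fold), Snhg12 (1.54-fold) and Neat1 (1.33-fold). None of the 7 fell in the test used here, which was limma on log2(FPKM + 1) with Benjamini-Hochberg adjustment over all 10882 genes and a threshold of 0.05. At an unadjusted p under 0.05 the count of lower members was also 0, and limma-voom on the recovered reads likewise called 3 higher and 0 lower. The comparison touched a large part of the transcriptome: by the same rule 35.0% of all tested genes were higher in NNMT and 30.6% were lower. The 3 of 7 are 42.9%, a share near that of all genes. The groups did not overlap in 3 of the 7 RNAs and in 69.9% of all tested genes. The median log2 fold change was 0.13 over the 7 and 0.03 over all tested genes. With 3 libraries against 3, an exact two-sided permutation test of a single gene cannot go below p = 0.1. Neat1, Snhg5 and Snhg12 each reached that 0.1.

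**Figure D1:**
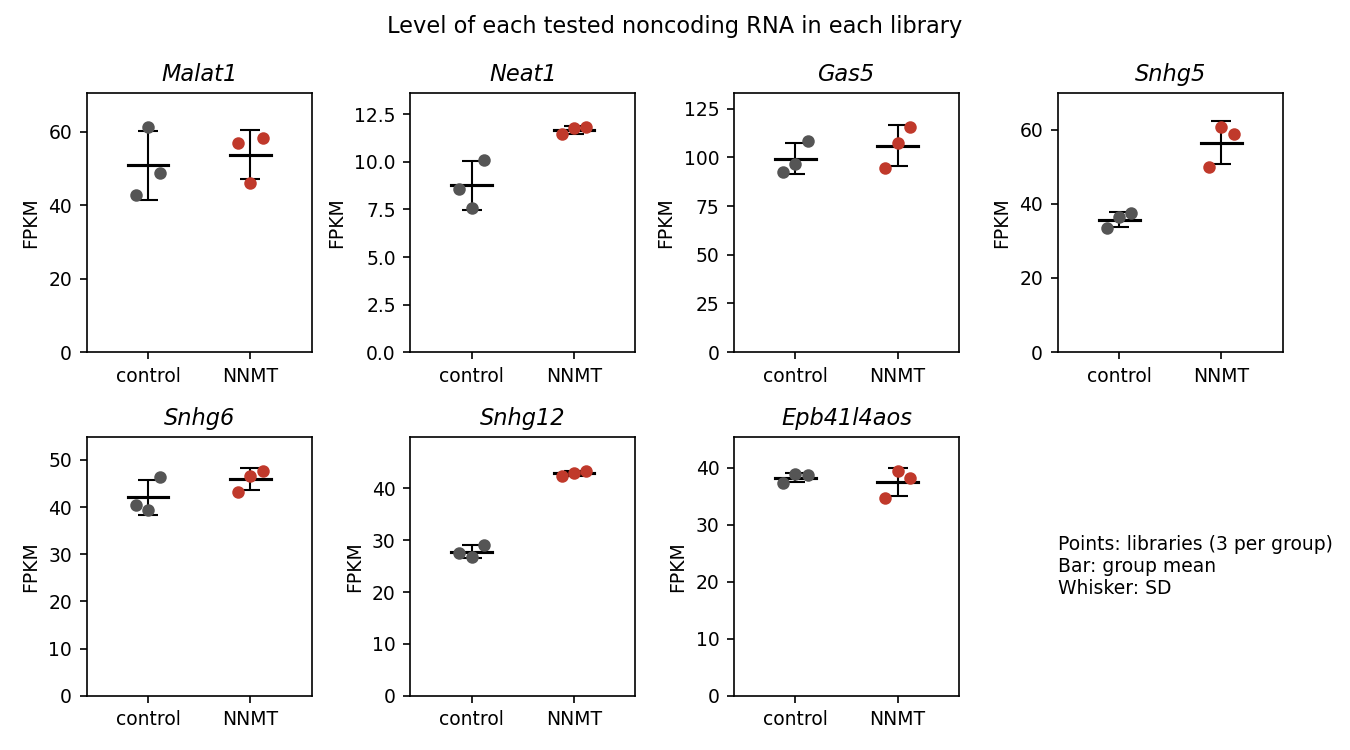
Level in FPKM (vertical axes, from 0, a scale for each RNA) of the 7 tested RNAs in the 3 control and 3 NNMT libraries; points are libraries, bars are group means and whiskers are SDs. For Neat1, Snhg5 and Snhg12 all 3 NNMT libraries lie above all 3 controls, and for the other 4 the groups overlap.

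Per transcript length, Gas5 was the most abundant of the 7 in control cells and Neat1 the least, 99.2 against 8.76 FPKM. Malat1 (50.9), Snhg6 (42.0), Epb41l4aos (38.3), Snhg5 (35.7) and Snhg12 (27.8) lay between them in control means. Malat1 and Snhg6 overlapped in both groups and so have no clear order. Epb41l4aos and Snhg5 overlapped in the control libraries and not in the NNMT libraries, where Snhg5 was the higher. All other neighbours in this order were separate in both groups. The last rank of Neat1 rests on the length used for it, its whole span of 20771 bases. In control reads not divided by length, Neat1 (18856) was below Malat1 (37573) and Gas5 (26460). It was above Snhg5 (3754), Snhg6 (3570), Snhg12 (2708) and Epb41l4aos (1723).

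Malat1 was at 42.8, 61.2 and 48.7 FPKM in control replicates 1 to 3 and at 56.9, 46.1 and 58.2 in the unnumbered library, replicate 2 and replicate 3 of NNMT. The groups overlapped throughout: the highest value of all was a control and the lowest was a control too. The means were 50.9 ± 9.39 and 53.7 ± 6.63 FPKM, a log2 fold change of 0.08 (SE 0.121, 95% interval -0.18 to 0.35, limma adjusted p = 0.553). Counting noise is small for so abundant an RNA, with 10169 reads in the library that had the fewest. The spread between libraries of a group was nonetheless larger than for 98.45% of tested genes, and the highest control was 1.43 times the lowest. Malat1 lies on the minus strand of chromosome 19 (GRCm38, as for all loci here, chr19:5795690-5802672, ENSMUSG00000092341). The labels do not say how RNAs were selected for the libraries.

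Neat1, a neighbour of Malat1 on the same strand (chr19:5824708-5845478, ENSMUSG00000092274), rose. It was at 8.59, 7.58 and 10.1 FPKM in control replicates 1 to 3. In NNMT it was at 11.45 in the unnumbered library, 11.8 in replicate 2 and 11.8 in replicate 3. Every NNMT library was above every control, and the 3 NNMT values were closer together than the controls. The mean went from 8.76 ± 1.27 to 11.7 ± 0.199 FPKM, a log2 fold change of 0.38 (SE 0.0823, 95% interval 0.20 to 0.57, limma adjusted p = 0.00202). The length behind these values, 20771 bases, is the whole span. The short and long forms of Neat1 share their start, and the table does not separate them.

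The proteins that work with these RNAs moved in both directions. Of 19 paraspeckle proteins, 4 were higher and 7 were lower (21.1% and 36.8%, beside 35.0% and 30.6% of all genes, median log2 fold change -0.01). Nono, an RNA-binding core protein of the paraspeckle, fell from 206 ± 4.68 to 106 ± 2.29 FPKM (limma adjusted p = 5.93e-08). Its relative Pspc1 rose from 6.97 ± 0.316 to 13.1 ± 0.123 FPKM (adjusted p = 4.41e-07). Sfpq, the partner that holds the Neat1 core together with Nono, fell from 122 ± 2.42 to 101 ± 7.41 FPKM (adjusted p = 0.00162), and is named here after its values were seen. Tardbp, an RNA-binding protein also found in paraspeckles, fell from 37.3 ± 2.12 to 27.6 ± 2.70 FPKM. Cpsf7, a subunit of the cleavage factor that acts on the early polyadenylation site of Neat1, rose from 21.5 ± 0.310 to 28.95 ± 0.548 FPKM. Nono lies on the X chromosome, and Sfpq and Tardbp lie on chromosome 4. Of the 1026 tested genes on these 2 chromosomes, 695 were lower and 135 were higher.

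Among 30 nuclear speckle and SR proteins, the splicing factors of the bodies where Malat1 gathers, 5 were higher and 12 were lower (median log2 fold change -0.08). These are 16.7% and 40.0%, beside 35.0% and 30.6% of all genes. Thoc2, a subunit of the mRNA export complex THO, fell from 12.4 ± 0.802 to 7.11 ± 0.361 FPKM, and U2af2, which binds the pyrimidine tract before an exon, fell from 171 ± 2.26 to 131 ± 5.41 FPKM. Srsf4 and Srrm1, both on chromosome 4, fell to 0.695 and 0.776 of control. Son, the large protein of the speckle core, rose 1.22-fold and is named after its values were seen.

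The list on the processing and stability of Malat1 had 14 tested genes, of which 8 were higher and 3 were lower (median log2 fold change 0.19). These are 57.1% and 21.4%, beside 35.0% and 30.6% of all genes. The list holds RNase P subunits, the tRNA end nuclease Elac2 and Mettl16. It also holds Mettl3, Mettl14 and Ythdc1, which write or read the m6A mark on Malat1 and many other RNAs. Subunits of RNase P and of the related RNase MRP were on both sides. Pop1 rose from 15.1 ± 0.805 to 27.8 ± 1.68 FPKM, Rpp38 from 6.43 ± 0.246 to 11.9 ± 1.95 and Rpp14 from 6.40 ± 0.0549 to 9.58 ± 0.315. Rpp21 fell from 9.83 ± 0.501 to 4.45 ± 1.21 FPKM (limma adjusted p = 9.84e-05). Mettl16, which binds the triple helix at the Malat1 end, rose 1.14-fold (adjusted p = 0.0283, named after its values were seen).

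Among the 5 tested host genes of the set, Snhg5 had the largest fold. It is a short gene on the minus strand of chromosome 9 (chr9:88521050-88522929, ENSMUSG00000097195) with 2 annotated intronic snoRNAs, Snord50a and Snord50b. Both are guides of the C/D class, named for a C box near the start and a D box near the end. Their sequences are shown because they are the product for which the rising transcript is processed. Capitals mark the C box ATGATGA and the D box CTGA (GENCODE M21, 5′ to 3′).
Snord50a: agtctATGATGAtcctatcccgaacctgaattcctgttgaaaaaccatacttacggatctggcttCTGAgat
Snord50b: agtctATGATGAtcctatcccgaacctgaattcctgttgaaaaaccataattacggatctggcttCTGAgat
The snoRNAs themselves were not analysed here: of 1507 annotated snoRNA genes, 1 was in the table, and none of those inside the 10 genes. The values below are of the host genes, and spliced and unspliced RNA were not told apart.

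Snhg5 was at 33.4, 36.3 and 37.5 FPKM in control replicates 1 to 3. In NNMT it was at 50 in the unnumbered library, 60.6 in replicate 2 and 58.9 in replicate 3. All 3 NNMT libraries were above all 3 controls, with the unnumbered library the lowest of the NNMT group. The mean went from 35.7 ± 2.10 to 56.5 ± 5.70 FPKM, a log2 fold change of 0.64 (SE 0.0736, 95% interval 0.48 to 0.81, limma adjusted p = 3.07e-05), on 3754 control and 6309 NNMT reads.

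Snhg12 carries 5 annotated snoRNA genes on the plus strand of chromosome 4 (chr4:132308623-132311024, ENSMUSG00000086290), mostly of the H/ACA class, which guides pseudouridylation, with Snord99 of the C/D class. Snora16a is annotated more than once at the same place, so the number of distinct snoRNAs is smaller. Snord99 and the H/ACA snoRNA Snora61 are shown as an example of each class. Capitals mark the C and D boxes of the first and the ACA box of the second.
Snord99: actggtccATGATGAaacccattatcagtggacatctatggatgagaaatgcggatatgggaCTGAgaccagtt
Snora61: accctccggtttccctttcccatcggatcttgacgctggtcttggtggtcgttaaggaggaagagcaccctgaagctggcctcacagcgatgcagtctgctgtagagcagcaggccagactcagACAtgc
Snhg12 was at 27.5, 26.8 and 29.1 FPKM in control replicates 1 to 3 and at 42.4, 43.0 and 43.4 in the unnumbered library, replicate 2 and replicate 3 of NNMT. The spread within each group was small beside the gap between them. The mean went from 27.8 ± 1.21 to 42.9 ± 0.510 FPKM, a log2 fold change of 0.61 (SE 0.0470, 95% interval 0.50 to 0.71, limma adjusted p = 1.9e-06). Snhg12 had the smallest SE and the smallest adjusted p of the 7.

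Gas5 lies on chromosome 1 (chr1:161034422-161038539, plus strand, ENSMUSG00000053332) and is known to accumulate in growth-arrested cells. It is the host of 10 annotated small RNA genes, overlapping entries of Snord80 among them. It was at 92.7, 96.9 and 108 FPKM in control replicates 1 to 3 and at 94.7, 108 and 116 in the unnumbered library, replicate 2 and replicate 3 of NNMT. The groups overlapped, with the unnumbered NNMT library near the lowest controls. The means were 99.2 ± 7.99 and 106 ± 10.5 FPKM, a log2 fold change of 0.09 (SE 0.0777, 95% interval -0.08 to 0.26, limma adjusted p = 0.319). Without the unnumbered NNMT library the value was 0.17 (adjusted p = 0.0493).

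Snhg6, host of Snord87 on the minus strand of chromosome 1 (chr1:9941959-9944118, ENSMUSG00000098234), was at 40.4, 39.4 and 46.4 FPKM in control replicates 1 to 3. In NNMT it was at 43.3 in the unnumbered library, 46.6 in replicate 2 and 47.7 in replicate 3. Control replicate 3 lay inside the NNMT range and the other 2 controls lay below it. The means were 42.0 ± 3.78 and 45.9 ± 2.30 FPKM, a log2 fold change of 0.13 (SE 0.0661, 95% interval -0.02 to 0.27, limma adjusted p = 0.117). Without control replicate 3 it was 0.20 (adjusted p = 0.0197), past the threshold.

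Epb41l4aos, on chromosome 18 beside Epb41l4a (chr18:33794892-33795986, plus strand, ENSMUSG00000087590), holds 1 annotated snoRNA gene. Its control replicates 1 to 3 were at 37.3, 38.8 and 38.7 FPKM. The unnumbered NNMT library was at 34.7, NNMT replicate 2 at 39.5 and NNMT replicate 3 at 38.1. NNMT held both the lowest and the highest value. The means were 38.3 ± 0.847 and 37.5 ± 2.45 FPKM, a log2 fold change of -0.03 (SE 0.0544, 95% interval -0.15 to 0.09, limma adjusted p = 0.62).

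Snhg3, host of Snora73a and Snora73b, was listed at 0 in all 6 libraries and was not tested. Its span (chr4:132348014-132353686, minus strand, ENSMUSG00000085241) overlaps that of Rcc1, the nuclear exchange factor of Ran, on the same strand. The labels do not say how reads that fit both genes were counted. Rcc1 fell from 49.7 ± 1.75 to 38.5 ± 2.64 FPKM (limma adjusted p = 0.000269).

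**Figure D2:**
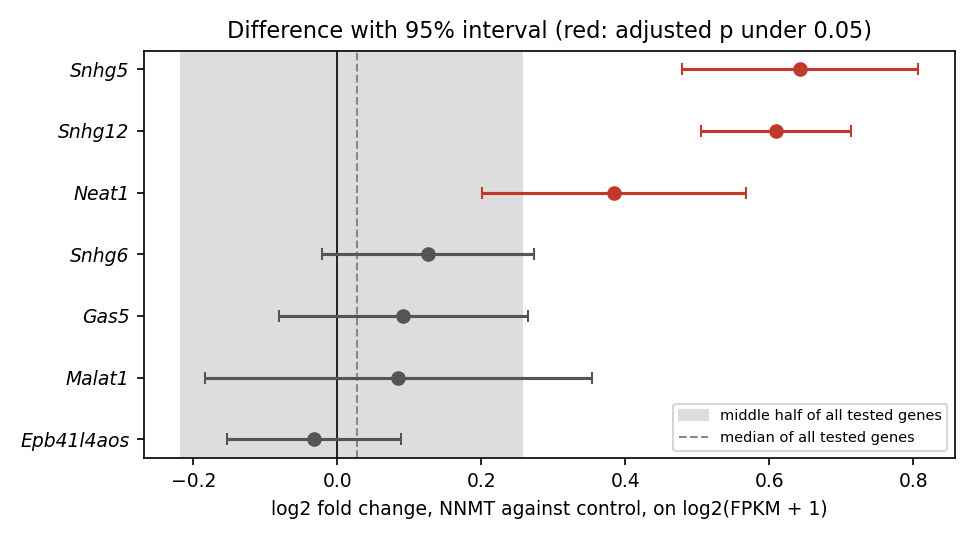
Log2 fold change of NNMT against control on log2(FPKM + 1) for the 7 tested RNAs (horizontal axis), with 95% intervals from limma; the grey band covers the middle of all tested genes from the lower quartile (-0.22) to the upper (0.26), and the dashed line is their median (0.03). Snhg5 and Snhg12 lie above the band with their whole interval, Neat1 with its estimate, and the estimates of the other 4 lie inside it.

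Promoter windows of the host genes are shown around the annotated start because the host genes are grouped by the pyrimidine tract found there. RefSeq windows (GRCm38.p6, 250 bases before to 50 after the start) were used for 7 of the 10 genes, 8 windows in all. A tract was scored where a C followed by 4 or more of C or T began within 10 bases of the start. Below, 50 bases before and 50 after the start are printed for the pair of host genes that rose and for Gas5, with the tract in capitals.
Snhg5, chr9:88522848-88522947, minus strand: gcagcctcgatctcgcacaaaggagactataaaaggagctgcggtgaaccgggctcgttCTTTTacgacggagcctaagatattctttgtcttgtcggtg
Snhg12, chr4:132308628-132308727, plus strand: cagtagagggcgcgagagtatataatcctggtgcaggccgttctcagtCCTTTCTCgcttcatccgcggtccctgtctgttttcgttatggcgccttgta
Gas5, chr1:161035116-161035215, plus strand: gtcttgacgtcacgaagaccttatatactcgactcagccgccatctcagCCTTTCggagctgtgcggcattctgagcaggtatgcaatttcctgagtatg
The 8 windows include Malat1, which is not a host gene, and Snhg1, Snhg3 and Snhg8, which were not tested. No window of Snhg6 or Epb41l4aos was among them. The tract was present in 5 of the 8 windows, those of Snhg3 and Snhg8 included, and in 30.7% of 32851 RefSeq windows of the same length. Of 20 windows of ribosomal protein genes that hold a snoRNA, 9 had it. Both host RNAs that rose have a tract, Snhg12 across its start and Snhg5 a little after it, and so does the Gas5 window shown, of an RNA that did not pass the test. The window of the other annotated Gas5 start (chr1:161034551-161034650) has no tract. The other motifs, searched on both strands, were the E-box CACGTG, the amino acid response motif TGATGNAA and the cyclic AMP response motif TGACGTCA. They were found in 7.15%, 3.97% and 1.79% of all windows, and TGACGTCA in this Gas5 window was the single match among the 8. A match is a description of the letters in the window only.

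Most tested genes around Snhg12 fell. Of 25 other tested genes whose lowest coordinate lies within 1 Mb of that of Snhg12, 21 were lower, 0 were higher and 4 did not pass (median log2 fold change -0.36, range -0.74 to 0.09). Chromosome 4 as a whole had 390 of 688 tested genes lower and 127 higher (median -0.23). Trnau1ap, a factor of selenocysteine incorporation and the nearest tested coding gene, fell from 17 ± 0.899 to 13.9 ± 0.580 FPKM. The difference between Snhg12 and its neighbours was not tested as such.

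**Figure D3:**
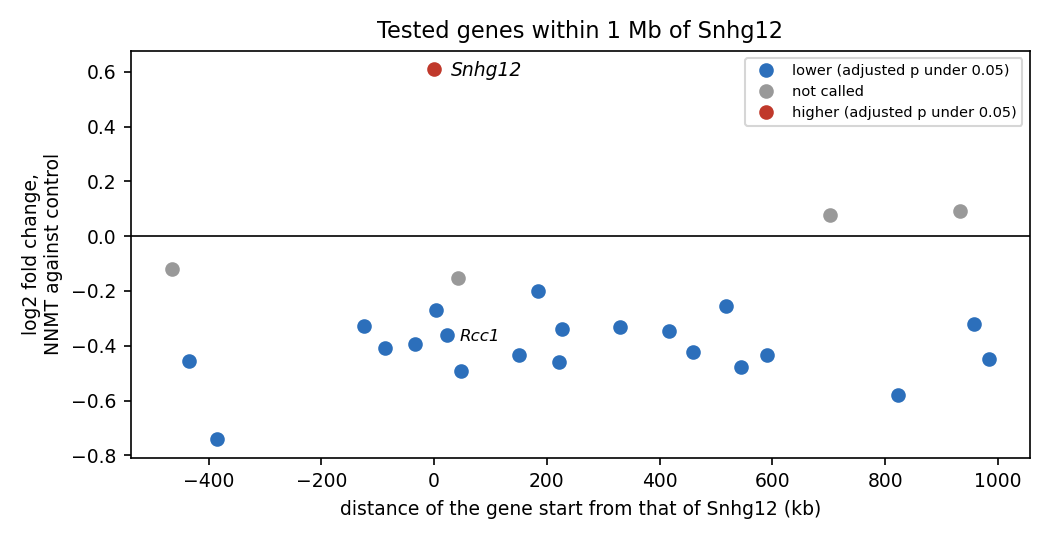
Log2 fold change of NNMT against control (vertical axis) for Snhg12 and the 25 other tested genes within 1 Mb. The horizontal axis, labelled as the gene start, is the distance in kb between the lowest coordinates of the genes. For genes on the minus strand that coordinate is the end. Snhg12, at 0.61, is the single gene called higher; 21 are called lower and 4 are not called.

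The chromosomes of the other members differed in their balance. On chromosome 19, which holds Malat1, Neat1 and Snhg1, 194 of 390 tested genes were higher and 70 lower, and on chromosome 9, which holds Snhg5, 289 of 603 were higher and 102 lower. On chromosome 1, which holds Gas5 and Snhg6, 145 of 626 were higher and 258 lower. Frmd8, a coding gene beside Neat1, was at 16.1 ± 1.37 and 15.1 ± 0.513 FPKM and did not pass. Beside Snhg5, the zinc finger gene Zfp949 rose from 2.46 ± 0.160 to 3.61 ± 0.227 FPKM, and Syncrip, an RNA-binding protein, was at 25.9 ± 1.98 and 28.6 ± 1.95 FPKM and did not pass. Zbtb37, a zinc finger gene on the opposite strand whose span overlaps that of Gas5, fell from 2.68 ± 0.237 to 1.76 ± 0.128 FPKM. Whether the counting used strand is not given, so reads in the shared stretch cannot be assigned with certainty. Slc3a2, the heavy chain of several amino acid transporters, starts 106 bp from Snhg1 on the opposite strand and rose from 122 ± 1.68 to 208 ± 10.9 FPKM (limma adjusted p = 5.09e-07).

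The other snoRNA hosts did not move as a block. In a list of 45 tested host genes, coding and noncoding, 9 were higher and 19 were lower (20% and 42.2%, median log2 fold change -0.04). With quantile normalization the counts were 14 and 13. Among those with the smallest adjusted p, these encode ribosomal proteins and fell: Rpl10 from 1488 ± 17.4 to 638 ± 35.4 FPKM, Rps2 from 1246 ± 31.4 to 819 ± 38.3, and Rpl7a from 969 ± 28.7 to 664 ± 18.3. Rpl10 is on the X chromosome.

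All genes that hold an annotated snoRNA were then divided by kind, a division chosen after the values were seen and therefore described without a test. Of 19 tested noncoding hosts, 8 were higher and 2 were lower (42.1% and 10.5%, beside 35.0% and 30.6% of all genes, median 0.13). Without the 5 members the counts were 6 and 2 of 14 (median 0.14). Among the higher ones, Snhg17 went from 10.9 ± 0.963 to 18.2 ± 0.571 FPKM, Zfas1 from 36.5 ± 1.63 to 47.3 ± 3.98 and Snhg15 from 30.4 ± 3.26 to 39.6 ± 2.13. The lower ones were the imprinted clusters Rian and Snhg14. The annotation counts the chaperonin gene Cct6a in this class, at 262 ± 8.90 and 276 ± 17.3 FPKM. Of 30 ribosomal protein genes with a snoRNA, 0 were higher and 22 were lower (median -0.17), but with quantile normalization 9 were higher and 10 lower (median -0.04). Of 164 other coding hosts, 57 were higher and 63 were lower (median 0.02). All 233 tested long noncoding genes had 79 higher and 56 lower (33.9% and 24.0%, median 0.06).

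**Figure D4:**
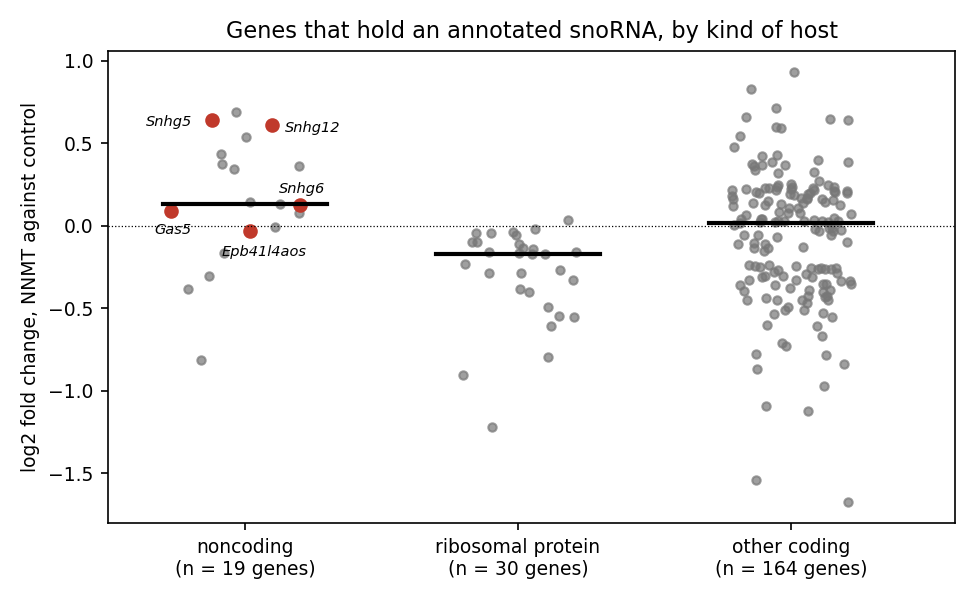
Log2 fold change of NNMT against control (vertical axis) for tested genes that hold an annotated snoRNA, as noncoding (19), ribosomal protein (30) and other coding (164) genes; points are genes, black bars are class medians (0.13, -0.17 and 0.02) and red points are the 5 tested members that hold a snoRNA. Horizontal position within a class carries no value, and Snhg5 and Snhg12 are near the top of the noncoding class.

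The lists of proteins that bind snoRNAs, which also hold assembly and ribosomal RNA processing factors, moved both ways. Of 20 C/D snoRNP proteins and assembly factors, 7 were higher and 3 were lower (35.0% and 15.0%, median 0.05). Of all tested genes, 35.0% were higher and 30.6% lower. Fbl, the methyltransferase of the C/D particle, fell from 224 ± 3.25 to 168 ± 10.3 FPKM, and Utp14a, a processing factor encoded on the X chromosome, fell from 17.1 ± 0.665 to 11.1 ± 0.963. Nolc1, a nucleolar chaperone of snoRNPs, rose from 78.7 ± 1.93 to 103 ± 5.91 FPKM, and Nop14 from 30.1 ± 2.01 to 40.4 ± 1.62. Of 8 H/ACA factors, 4 were higher and 3 were lower (median 0.03). Dkc1, the pseudouridine synthase, which is X-linked, fell from 60.3 ± 3.07 to 37.7 ± 3.97 FPKM, and the core protein Nhp2 from 127 ± 6.27 to 105 ± 10.0. Shq1, the chaperone of dyskerin, rose from 7.95 ± 0.211 to 13.2 ± 0.316 FPKM, and Parn, which trims H/ACA RNA ends, from 15.7 ± 1.10 to 20.1 ± 1.02. Among the core proteins of both particles, Fbl, Dkc1, Nop10 and Nhp2 were lower and Gar1 was higher. The core proteins Nop56, Nop58 and Snu13 did not pass. Nop10, Gar1, Nop56, Nop58 and Snu13 are named after their values were seen.

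Of 22 factors of nonsense-mediated decay, 6 were higher and 7 were lower (27.3% and 31.8%, beside 35.0% and 30.6% of all genes, median 0.05). Upf3b, a bridge to the exon junction complex encoded on the X chromosome, fell from 8.68 ± 0.449 to 4.95 ± 0.261 FPKM. Its autosomal relative Upf3a rose from 37.4 ± 1.63 to 51.9 ± 1.76 FPKM. Magoh, a core protein of that complex on chromosome 4, fell from 86.6 ± 6.03 to 53.6 ± 2.69, and Nbas rose from 7.79 ± 0.12 to 9.93 ± 0.211. Of 24 transcripts known as targets of the pathway, 13 were higher and 6 were lower (54.2% and 25%, median 0.13). This list shares several genes with that of the factors, among them Upf3b, which fell. Nat9 rose from 7.08 ± 0.571 to 16.1 ± 1.04 FPKM, the cystine transporter Slc7a11 from 2.34 ± 0.147 to 5.62 ± 0.5, and the stress gene Gadd45b from 30.8 ± 0.730 to 55.2 ± 4.12. Several of these targets are also induced by stress transcription factors, Slc7a11 and Gadd45b among them.

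Of 40 other nuclear or regulatory long noncoding RNAs listed, 27 were in the table and 13 were tested. Of these, 3 were higher and 7 were lower (23.1% and 53.8%, beside 35.0% and 30.6% of all genes, median -0.17). H19, an imprinted RNA of embryonic tissue, was at 2.13 ± 1.17 FPKM in control and 41.2 ± 7.12 in NNMT. Rian and Mirg, from the imprinted Meg3 cluster, fell from 27 ± 1.43 to 15.0 ± 1.67 and from 6.53 ± 0.502 to 3.92 ± 0.179 FPKM. Pvt1, the neighbour of Myc, rose from 7.77 ± 0.469 to 11.0 ± 0.691 FPKM.

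For Malat1, Neat1 and Gas5, the 3 genes with the most similar profile over the 6 libraries were sought by Euclidean distance of centred log2(FPKM + 1) values. For Neat1 they were Lrif1 (0.0821), Tctex1d2 (0.0938) and Trmt13 (0.0987), all higher in NNMT with control replicate 3 above control replicates 1 and 2. For Gas5 they were Rnf138 (0.0772), Tagap1 (0.0792) and Tial1 (0.0834), none of which passed the test. The nearest profiles to Malat1 were farther away: Llph-ps2 (0.166), Ccdc82 (0.257) and Zfp960 (0.265). The 6 points shared by all genes make such likeness a description of these libraries.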

How the data were processed

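RNA was extracted with a column kit and made into libraries with a standard NEB preparation, per the labels' protocols. Per the submitters' processing notes, CASAVA, STAR 2.5 and the mm10 build were used; the counting program, use of strand and selection of RNA are not named there or in the labels. The authors deposited 1 table of 35275 genes whose header names no unit. Its values were read as FPKM that the authors computed from reads counted per gene. Of 20528 genes above 0, 14597 gave whole numbers of reads (within 0.01) with the longest GENCODE M21 transcript as gene length. The step depended on gene length and library, at 0.0250 to 0.0316 FPKM per read on 1 kb. For the other genes a length that gave whole reads was searched for, so their match is not evidence for the unit. Identifiers were matched to GENCODE M21 (34490 of 35275).

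Genes whose mean reached 1 FPKM were tested with limma 3.58.1 (R 4.3.3) on log2(FPKM + 1), with trended prior variance, robust moderation, Benjamini-Hochberg adjustment over all 10882 and a threshold of 0.05. Two-sided p-values are given. A fold on this scale understates changes of low genes; folds in the text without the word log2 are ratios of mean FPKM. The design allowed for counts or for FPKM, and the FPKM form was used. limma-voom on the recovered reads, which called 3837 genes higher and 3356 lower, was an alternative. The test was also run on simulated counts with few changed genes and the same spread setting for all genes. That setting differs from these data, so its outcome is not used here. The column of the unnumbered NNMT library was assigned to its group only. Alternatives changed the normalization, filter, pseudocount, moderation, threshold and libraries.

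The members and lists were chosen with earlier results of these data known. Named genes are all members; in each list, the 4 called genes with the smallest adjusted p; the nearest coding genes within 50 kb; and the 3 most similar profiles for Malat1, Neat1 and Gas5. Some genes that this rule selects are not reported here. Exceptions are marked as named after their values were seen; this holds also for Tubb3, the noncoding hosts Snhg14, Snhg15, Snhg17, Zfas1 and Cct6a and for the division of hosts by kind. Promoter windows are from RefSeq and snoRNA sequences from GENCODE M21.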

Additional observations from a re-analysis of the deposited data

How the results depend on the processing

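Neat1, Snhg5 and Snhg12 passed the threshold in the same direction in all 18 alternatives, with log2 fold changes of 0.21 to 0.48, 0.54 to 0.73 and 0.49 to 0.64 and largest limma adjusted p of 0.0164, 0.000857 and 7.08e-05. Leaving out each library in turn gave 3383 to 3858 genes higher, 2968 to 3355 lower, and 3 to 4 members higher with 0 lower. Over all alternatives the counts were 2883 to 4396 higher and 2609 to 3609 lower. Malat1 changed sign to -0.03 without control replicate 1 and Epb41l4aos to 0.02 without the unnumbered NNMT library, neither past the threshold; leaving out each library in turn, they ranged from -0.03 to 0.223 and from -0.07 to 0.02. Snhg6 passed at 0.20 (adjusted p = 0.0197) without control replicate 3, and Gas5 at 0.17 (adjusted p = 0.0493) without the unnumbered NNMT library; across alternatives their adjusted p ranged from 0.0197 to 0.363 and from 0.0493 to 0.782.

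The labels list replicate 1 in both groups too, and the unnumbered library is the only NNMT column left for it. In the column names, the groups share the replicate numbers 2 and 3 only. Deviations from the group mean correlated at 0.21 and 0.11 for these pairs, at 0.31 for control replicate 1 with the unnumbered NNMT library, and at -0.38 to 0.21 for the other combinations. Because that library carries no number in the table, the third combination was not used as a pair, a fit of 3 pairs was not made, and whether the cultures are paired was not settled. A fit with the replicate block on these 4 libraries called 3910 genes higher and 3199 lower, against 3670 and 2958 for the same libraries without it, a comparison added after seeing the data. Snhg6 was at 0.14 in both, with limma adjusted p = 0.0374 with the block and 0.136 without it. With the block, 4 libraries leave 1 residual degree of freedom, so its p-values rest mostly on the variance pooled over genes. Its adjusted p for Snhg5 was 9.74e-27. The p-values and counts of the blocked fit are therefore not comparable with those of the fit without it. Malat1 was at -0.075 and Epb41l4aos at 0.002 both with the block and without it. The cause of these changes was not tested. Scaling moved the median of all genes by less than 0.1, from 0.003 with medians of ratios to 0.032 with limma-voom.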
